A study of Mus musculus with 6 samples.

Results

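The miR-99/100, miR-125 and miR-10 families were followed in Ly6Chigh (classical) and Ly6Clow (non-classical) monocytes of the mouse. They were read by 10 of the 750 miRNA assays of the screen, which cover 9 mature miRNAs, since miR-10b was measured on both cards. The assays were picked by name, as mmu-miR-99a, mmu-miR-99b, mmu-miR-100, mmu-miR-125a-5p, mmu-miR-125a-3p, mmu-miR-125b-5p, mmu-miR-125b-3p, mmu-miR-10a and mmu-miR-10b. The prefix for mouse is left out below. Monocytes came from 3 DBA/1 mice, and each mouse gave 1 freshly isolated Ly6Chigh and 1 Ly6Clow sample. The 6 samples carry no treatment in their labels, and age, sex and the purity of the mouse sort are not given in the sources used here. From 10 ng of total RNA per sample, reverse transcription with stem-loop primers and preamplification were followed by TaqMan low-density arrays, in which the readout of a well is its threshold cycle (Ct), reached when the probe's fluorescence crosses a set level during the PCR. A Ct lower by 1 cycle stands for a doubling of template, and a Ct of 40 marks reactions with no signal. In such bulk samples, fewer cells that hold a miRNA and less of it per cell cannot be told apart.

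MiRNAs repress messenger RNAs through their seed, bases 2 to 8 of the mature strand, so that miRNAs with a shared seed can share targets. The genes of these families lie together in vertebrate genomes. A miR-99 or miR-100 gene, a let-7 gene and a miR-125 gene form a conserved trio, and the miR-10 genes lie among the Hox genes, which set identity along the body axis and act in blood progenitors. In blood, miR-125a and miR-125b are known for their part in the maintenance of stem and progenitor cells, and miR-125b for its action in macrophage activation. The miR-99/100 group is known to repress mTOR, a kinase that controls growth, and miR-10a to restrain NF-κB signalling in endothelium.

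The mature sequences are shown because the seeds define the 3 groups and because some members differ by a single base, which bears on what a single assay can tell apart. They are from RefSeq with the build GRCm38.p6, matched by name to the 5p strand where the assay names no strand. Sequences were found for 8 of the 9 miRNAs, and miR-125b-3p is named only. Each is written 5′ to 3′ with the seed in capitals.
miR-99a: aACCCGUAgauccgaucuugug
miR-99b: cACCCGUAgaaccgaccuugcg
miR-100: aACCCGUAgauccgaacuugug
miR-125a-5p: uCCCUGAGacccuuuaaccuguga
miR-125b-5p: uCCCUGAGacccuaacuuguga
miR-125a-3p: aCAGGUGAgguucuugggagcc
miR-10a: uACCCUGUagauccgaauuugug
miR-10b: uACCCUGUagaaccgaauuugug

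The miR-99/100 seed ACCCGUA is carried by 3 mature mouse miRNAs of the RefSeq table, all 3 of them members, and the miR-10 seed ACCCUGU by 2, both members. The miR-125 seed CCCUGAG is carried by 5, of which miR-125a-5p and miR-125b-5p are members. Counted from 1 at the 5′ end, miR-99a and miR-100 differ by U16A only, and miR-10a and miR-10b by U12A only. For miR-99b the substitutions relative to miR-99a are A1C, U11A, U16C and U21C. The strands of miR-125a-5p and miR-125b-5p share their first 13 bases and are 3 edits apart. Between groups, miR-100 and miR-10a are 3 edits apart although their seeds differ.

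In the RefSeq annotation of GRCm38.p6, Mir99a lies on the + strand of chromosome 16 with Mirlet7c-1 656 bases away and Mir125b-2 47272 bases away. On chromosome 9, Mir100 lies within the span of the non-coding gene Mir100hg, 5211 bases from Mirlet7a-2 and 50421 bases from Mir125b-1. The densest trio is on chromosome 17, where Mir99b is 94 bases from Mirlet7e and 554 bases from Mir125a, inside the span of Spaca6. Mature miR-125b-5p is encoded on chromosomes 9 and 16, so its assay cannot tell the 2 loci apart. On chromosome 11, Mir10a lies within the span of Hoxb3 and 992 bases from Hoxb4, and on chromosome 2, Mir10b lies within the spans of Hoxd3 and Hoxd4. The deposited tables give no genome build, and the exon or intron at these places was not determined here.

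One sample stood apart on the card that holds 9 of the 10 assays, which is called card A here from its place in the listed order. This was the Ly6Chigh sample of mouse 1, whose Ct values had a Spearman rho of 0.10 to 0.15 with each other sample over the 127 assays tested on this card. Among the remaining 5 samples rho was 0.73 to 0.94 (assays are not independent replicates). On the other card, called card B, rho over the 74 tested assays was 0.10 to 0.90 for the Ly6Chigh sample of mouse 1. Among the remaining 5 samples it was −0.20 to 0.80 there, so that card B was less uniform between samples. The monocyte markers were checked against the labels. miR-223 and miR-142-3p, which mark myeloid and blood cells, were under a Ct of 35 in 5 of 6 samples and undetected in this one, and the remaining marker, miR-21, had a Ct of 21.96. Of the 5 epithelial markers, between 1 and 4 were under 35 in every sample, and miR-200b was at 21.98 in this sample against 27.09 or higher in the others. The lymphocyte markers were under 35 in 3 of 3 assays in the other 5 samples and in 2 of 3 in this one. Of the erythroid and platelet markers, miR-451 was between 30.94 and 32.98 in the other 5 samples and undetected in this one, as was the endothelial and platelet marker miR-126-3p, and miR-486 was undetected in all 6. The part of these other cell types in the results was not tested. Because its values on card A run against its label, each member result is given with and without the Ly6Chigh sample of mouse 1.

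**Figure D1:**
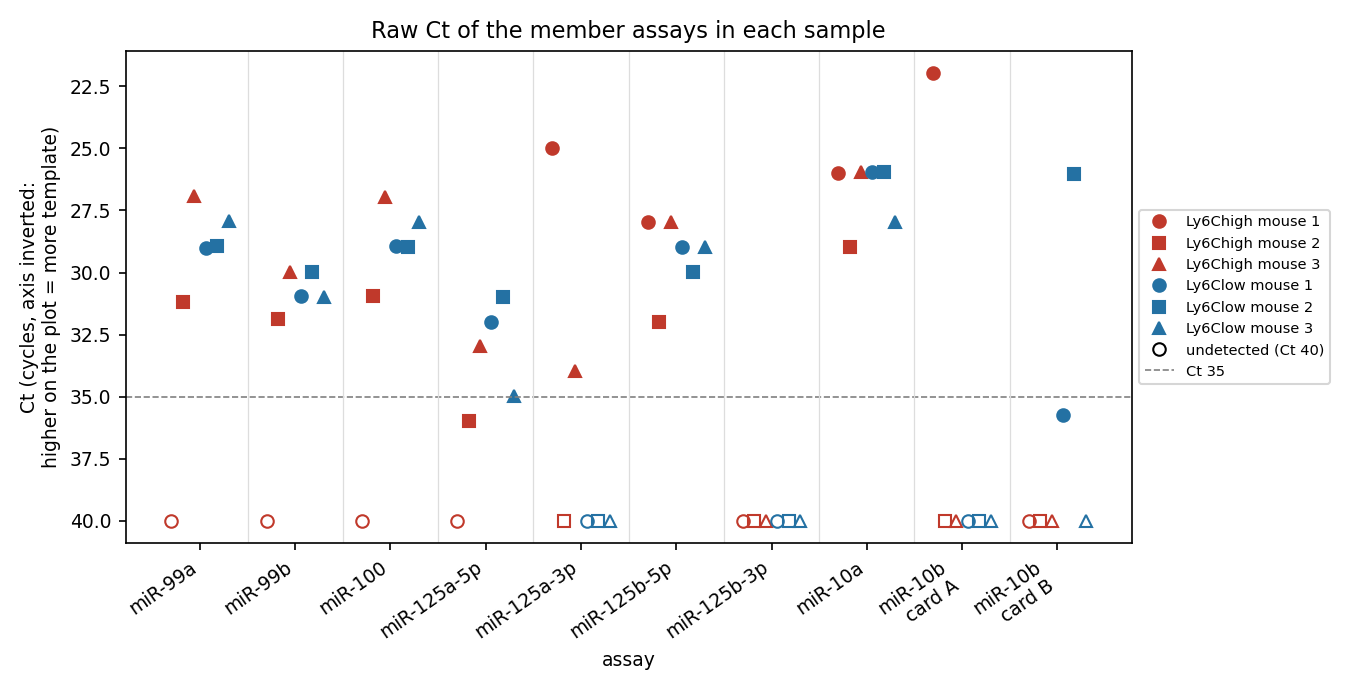
Raw Ct (cycles, axis inverted) of the 10 member assays in the 3 Ly6Chigh (red) and 3 Ly6Clow (blue) samples, with the symbol giving the mouse, open symbols for undetected reactions at 40 and a dashed line at 35. miR-99a, miR-99b, miR-100 and miR-125a-5p were detected in 5 samples each and not in Ly6Chigh mouse 1, whereas miR-125b-5p and miR-10a were detected in all 6.

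Of the 60 member reactions, 37 gave a signal and 35 had a Ct under 35. miR-125b-5p and miR-10a were under 35 in all 6 samples, miR-99a, miR-99b and miR-100 in 5 and miR-125a-5p in 4, and these 6 assays passed the filter for testing, which asked for 3 or more samples below a Ct of 35. The other 4 did not pass it: miR-125a-3p was under 35 in 2 samples, each miR-10b assay in 1 and miR-125b-3p in 0. Of the 37 signals, 34 lay within 0.1 cycles of a whole number, so that differences come mostly in whole cycles.

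For each assay, the Ct was subtracted from that of U6 on the same card, which gives expression in log2 units that rise with the amount of miRNA. The reported fits and permutation tests take the 6 samples as unpaired, and the fit with the mouse as a block is given at the end. None of the 6 tested members passed the threshold between the subsets (limma adjusted p = 0.985 for each). The threshold was an adjusted p of 0.05, and 0% of all 201 tested assays passed it. At an unadjusted p under 0.05, 0 of the 6 members stood against 0.995% of all assays with lower and 0% with higher expression in Ly6Chigh monocytes. The median log2 difference, Ly6Chigh minus Ly6Clow, was −1.62 over the 6 members and −0.45 over all tested assays, with 2 members above 0 against 39.8% of all assays. Without the Ly6Chigh sample of mouse 1 the medians were 1.34 and 0.63, with 6 of 6 members above 0 against 67.2% of all assays, and 0 members had an unadjusted p under 0.05, beside 1.49% of all assays with higher and 0.498% with lower expression. The 6 tested members all lie on card A. Over its 127 tested assays the median was −1.14, with 46 above 0. Without the Ly6Chigh sample of mouse 1 it was 0.89, with 100 of the 127 above 0. In mice 2 and 3, expression was higher in Ly6Chigh monocytes in both mice for 1 of the 6 members, miR-10a, beside 38.5% of 148 assays (those of both cards with a signal in each of these mice), and lower in both mice for 0 members, beside 18.9%. The sign of the median over the 6 members thus turned with 1 sample, as did that of all assays together.

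Within the miR-99/100 group, Ly6Chigh and Ly6Clow samples overlapped for every member. The Ct of miR-99a, whose gene is paired with a let-7c gene, was 40 (undetected), 31.17 and 26.93 in the Ly6Chigh samples of mice 1, 2 and 3, and 29.01, 28.94 and 27.91 in the Ly6Clow samples. On this raw scale, among the samples with a signal, Ly6Chigh mouse 3 had the most template and Ly6Chigh mouse 2 the least. After subtraction of U6, Ly6Clow mouse 3 was the highest of these samples at −5.99 and Ly6Clow mouse 1 the lowest at −9.21. Relative to U6, expression was −10.00 ± 6.35 (SD, n = 3) in Ly6Chigh and −7.79 ± 1.64 (SD, n = 3) in Ly6Clow monocytes, as log2. This left a difference of −2.21 (standard error 3.38, limma adjusted p = 0.985; exact permutation of the 6 samples, 2-sided, p = 0.8, where 0.1 is the smallest p that 3 against 3 allow). It was decided by mouse 1, where the undetected reaction gave −8.13, against 1.66 and −0.16 in mice 2 and 3. Without the Ly6Chigh sample of mouse 1 it was 1.46 (standard error 1.27, limma adjusted p = 0.989), with a 95% interval of −1.98 to 4.90.

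miR-100 followed miR-99a closely. Its Ct was 40 (undetected), 30.95 and 26.98 in the Ly6Chigh samples and 28.92, 28.98 and 27.96 in the Ly6Clow samples of mice 1, 2 and 3. The gap between the Ct of miR-99a and of miR-100 stayed within 0.22 cycles in the 5 samples with a signal, and it varied by 0.27 cycles between them. Among the 4278 pairs of the 93 card A assays detected in these 5 samples, the gap varied by a median of 2.97 cycles, and in 1.85% of the pairs by no more than that of miR-99a and miR-100. The 2 miRNAs come from chromosomes 16 and 9 and differ by the single base U16A, as printed above. How far each assay also reads the other miRNA is not known from these values. The difference between the subsets was −2.15 (standard error 3.39, limma adjusted p = 0.985; exact permutation p = 0.8), and 1.54 (standard error 1.24, limma adjusted p = 0.965) without the Ly6Chigh sample of mouse 1.

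miR-99b, which carries the same seed with 4 substitutions outside it relative to miR-99a, had a more variable gap to it than miR-100 had. Its Ct was 40 (undetected), 31.88 and 29.98 in the Ly6Chigh samples and 30.96, 29.97 and 30.98 in the Ly6Clow samples. These values cover 1.91 cycles over the 5 samples with a signal, against 4.24 for miR-99a and 3.97 for miR-100. The gap to miR-99a ranged from −3.07 to −0.71 cycles over 5 samples, a range of 2.36 against 0.27 for the gap between miR-99a and miR-100. Within mice, Ly6Chigh minus Ly6Clow was −6.18, 1.98 and −0.15, which made −1.45 over all samples (standard error 2.92, limma adjusted p = 0.985; exact permutation p = 0.9) and 1.59 (standard error 1.21, limma adjusted p = 0.965) without the Ly6Chigh sample of mouse 1.

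**Figure D2:**
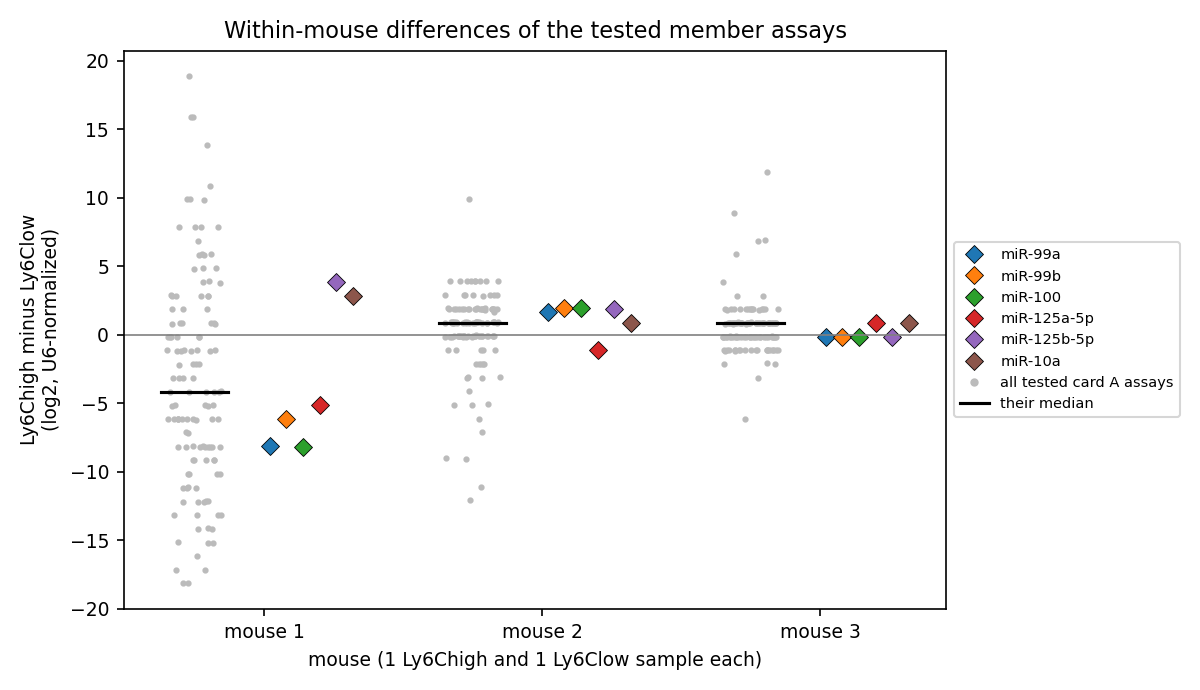
Ly6Chigh minus Ly6Clow within each mouse (log2, U6-normalized) for the 6 tested members (diamonds) beside all 127 tested assays of card A (grey points, black line for their median). In mouse 1 the members split into −8.22 to −5.14 and 2.85 to 3.87, while in mice 2 and 3 they lay between −1.11 and 1.98.

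In the miR-125 group, miR-125b-5p was detected in every sample and the assay named miR-125b-3p in none. The Ct of miR-125b-5p was 27.97, 31.98 and 27.96 in the Ly6Chigh samples of mice 1, 2 and 3 and 28.98, 29.99 and 28.96 in the Ly6Clow samples. On this raw scale Ly6Chigh mouse 2 had the least template, and it also had the highest U6 Ct on card A, 24.66 against 19.80 to 22.66 in the others. Relative to U6, expression was −6.61 ± 1.13 (SD, n = 3) in Ly6Chigh and −8.48 ± 1.25 (SD, n = 3) in Ly6Clow monocytes. Ly6Chigh monocytes thus lay higher by 1.88 (standard error 1.55, limma adjusted p = 0.985; exact permutation p = 0.3), with a 95% interval of −1.92 to 5.68. Within mice it was 3.87, 1.91 and −0.14, so that expression was higher in Ly6Chigh monocytes in 2 of 3 mice and the groups overlapped through mouse 3. Without the Ly6Chigh sample of mouse 1 the difference was 1.23 (standard error 1.08). With no U6 subtracted, the log2 difference was 0.0073, so that nearly all of the 1.88 entered with the subtraction of U6. On card A, the U6 Ct was 22.66, 24.66 and 20.77 in the Ly6Chigh and 19.80, 20.76 and 21.92 in the Ly6Clow samples. What these U6 values reflect was not tested.

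miR-125a-5p, which shares the seed and its first 13 bases with miR-125b-5p, was detected in 5 samples. Its Ct was 40 (undetected), 35.97 and 32.96 in the Ly6Chigh samples and 31.998, 30.97 and 34.98 in the Ly6Clow samples. Levels of different assays are not compared here, since their amplification may differ. On the raw scale, Ly6Clow mice 1 and 2 had the most template, but Ly6Clow mouse 3 lay below Ly6Chigh mouse 3. The subsets differed by −1.80 (standard error 2.15, limma adjusted p = 0.985; exact permutation p = 0.6), with −5.14, −1.11 and 0.87 within mice 1, 2 and 3, and it was 0.065 (standard error 1.21) without the Ly6Chigh sample of mouse 1. Mir125a and Mir99b are neighbours on chromosome 17. The gap between the Ct of miR-99b and of miR-125a-5p ranged from −4.09 to −0.995 cycles over 5 samples, a range of 3.10. In the other trios, the gap to miR-125b-5p varied by 1.08 cycles for miR-99a and by 0.96 for miR-100 over 5 samples. The median range over the pairs of card A assays described above was 2.97 cycles.

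The 3p strand of miR-125a gave a Ct of 24.97 in Ly6Chigh mouse 1 and 33.98 in Ly6Chigh mouse 3 and was undetected in the other 4 samples. A signal was thus listed in 2 Ly6Chigh samples and in 0 Ly6Clow samples, and the stronger one came from the card A that stood apart. In that sample the 5p strand of the same gene was undetected. miR-125b-3p was undetected in all 6 samples.

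In the miR-10 group, miR-10a was the only tested member of the 6 whose U6-normalized values did not overlap between the subsets and were higher in Ly6Chigh monocytes in 3 of 3 mice. Of all tested assays, 2.99% had Ly6Chigh values entirely above the Ly6Clow values, and 10.6% of the 142 assays with a signal in every mouse were higher in all 3 mice. In the other direction, 0 of the 6 tested members were separated or lower in all 3 mice, beside 2.49% and 14.8% of these assays. The raw Ct was 25.97, 28.97 and 25.97 in the Ly6Chigh samples of mice 1, 2 and 3, and 25.97, 25.97 and 27.98 in the Ly6Clow samples. On this scale 4 samples from both subsets shared a rounded Ct of 25.97 and the subsets overlapped. After subtraction of U6, expression was −3.31, −4.31 and −5.19 in Ly6Chigh and −6.16, −5.21 and −6.06 in Ly6Clow monocytes. The groups were then separated by 0.01, the distance between Ly6Chigh mouse 3 and Ly6Clow mouse 2. Means were −4.27 ± 0.94 (SD, n = 3) and −5.81 ± 0.52 (SD, n = 3), a difference of 1.54 (standard error 1.42, limma adjusted p = 0.985; exact permutation p = 0.1, the smallest possible), with a 95% interval of −1.96 to 5.03. Within mice it was 2.85, 0.89 and 0.86, and the medians of all tested card A assays in the same mice were −4.17, 0.88 and 0.82, so that miR-10a lay close to the median in mice 2 and 3. Without the Ly6Chigh sample of mouse 1 the difference was 1.05 (standard error 0.86). With no U6 subtracted and all 6 samples, the log2 difference was −0.33, so that the positive sign entered with the subtraction of U6.

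miR-10b, 1 base from miR-10a, was read by an assay on each card, and the assays disagreed. On card A it had a Ct of 21.97 in Ly6Chigh mouse 1 and was undetected in the other 5 samples. On card B it had a Ct of 26.03 in Ly6Clow mouse 2 and 35.75 in Ly6Clow mouse 1, and was undetected in the other 4, Ly6Chigh mouse 1 included. No sample was under 35 on both cards. Of the 13 miRNA names on both cards, which give 78 pairs of reactions, 3 pairs were under 35 on both cards, 19 on 1 card and 56 on neither. The plant control assay, for a miRNA that mouse cells do not make, also had a signal on card B of Ly6Clow mouse 2, at a Ct of 33.97, and its part in the miR-10b value was not tested.

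The members at 40 in Ly6Chigh mouse 1 were not set apart from the rest of card A. Of the 6 tested members, 4 were undetected there, beside 55.9% of the 102 tested card A assays that were below a Ct of 35 in 4 or 5 of the remaining samples. Of the 2 card A members undetected in the other 5 samples, miR-10b had a signal there and miR-125b-3p had none, beside 23% of 187 such assays.

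The genomic partners were measured on card A except miR-196a, which had no assay under its mouse name, and 4 of the remaining 6 were tested, with 0 past the threshold. let-7e, from the trio with miR-99b and miR-125a, had a Ct of 24.97, 26.00 and 22.96 in the Ly6Chigh and 21.97, 21.98 and 24.97 in the Ly6Clow samples of mice 1, 2 and 3, and unlike miR-99b and miR-125a-5p it was detected in Ly6Chigh mouse 1. Its difference was 0.20 (standard error 1.42). For let-7c, which is also encoded away from miR-99a, the difference was 0.53 (standard error 1.45). let-7a, encoded beside miR-100 and at other loci, was undetected in both samples of mouse 2 and in Ly6Chigh mouse 1, and between 24.00 and 26.95 in the other 3, with a difference of −2.82 (standard error 5.39). The differences of let-7e, let-7c and let-7a were 0.38, 0.71 and −0.30 without the Ly6Chigh sample of mouse 1. Of the other Hox-cluster miRNAs, miR-196b was under 35 in 4 samples, with a difference of 2.54 (standard error 2.87) that was 0.89 without the Ly6Chigh sample of mouse 1, miR-615-3p had a signal in Ly6Chigh mouse 1 alone, at 27.98, and miR-615-5p in none. The miR-125 seed is also found in miR-351. Its mouse assay was undetected in all 6 samples, and the assay named for the rat gave 34.98 and 33.99 in the Ly6Chigh and Ly6Clow samples of mouse 2 alone (both chosen after the values were seen).

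Opposite strands of the same families were read by 6 assays on card B, and 3 of them were tested, with 0 past the threshold. The miR-99b opposite strand, in an assay named for the human, had a Ct of 25.93 in Ly6Chigh mouse 2, 34.15 in Ly6Clow mouse 1 and 21.99 in Ly6Clow mouse 2. That of miR-10b had a Ct of 33.98, 31.98 and 31.97 in the same 3 samples. The miR-125b opposite strand, in the assay named for the rat, had 31.99 and 30.20 in the samples of mouse 1 and 29.98 in Ly6Clow mouse 2. Its assay named for the mouse was undetected in all 6 samples, as were the opposite-strand assays of miR-10a, named for the human, and miR-99a, named for the rat. All 6 opposite-strand assays were undetected in both samples of mouse 3, whose card B had 48 and 31 miRNA assays under 35, against 60 to 148 in the samples of mice 1 and 2. The differences of the 3 tested assays were −1.39 (standard error 6.03), −1.47 (standard error 3.21) and −2.06 (standard error 3.61). Without the Ly6Chigh sample of mouse 1 they were 0.71, −0.71 and −4.98.

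Among 7 other miRNAs known from blood progenitors or macrophage activation, 0 passed the threshold. Their differences were above 0 for 1 and below 0 for 6, with a median of −1.48. miR-146a, a brake on NF-κB signalling, had an unadjusted p under 0.05, with a difference of −5.48 (standard error 1.94), and without the Ly6Chigh sample of mouse 1 it was −4.96 with an unadjusted limma p of 0.058. miR-155, induced by inflammatory stimuli, differed by −1.15 (standard error 3.22) and miR-130a by 2.89 (standard error 1.65). Without the Ly6Chigh sample of mouse 1 these were 1.89 and 2.57, the median was 1.39 with 4 above and 3 below 0, and 0 of the 7 had an unadjusted p under 0.05.

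For the members detected in all 6 samples, the assays of the same card with the most similar pattern were sought among the 39 others under 35 in all 6, after each sample was centred on its median. The values share the card and the steps of 1 cycle, while U6 cancels in the centring. For miR-10a the closest were miR-181a (Pearson r = 1.00), miR-18a (r = 0.99) and miR-148b (r = 0.98), and over the 5 samples without Ly6Chigh mouse 1 the same assays had an r of 1.00, 0.80 and 1.00. For miR-125b-5p they were miR-25 (r = 0.91), miR-28 (r = 0.86) and miR-181a (r = 0.81), with 0.93, 0.91 and 0.82 over the 5 samples.

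**Figure D3:**
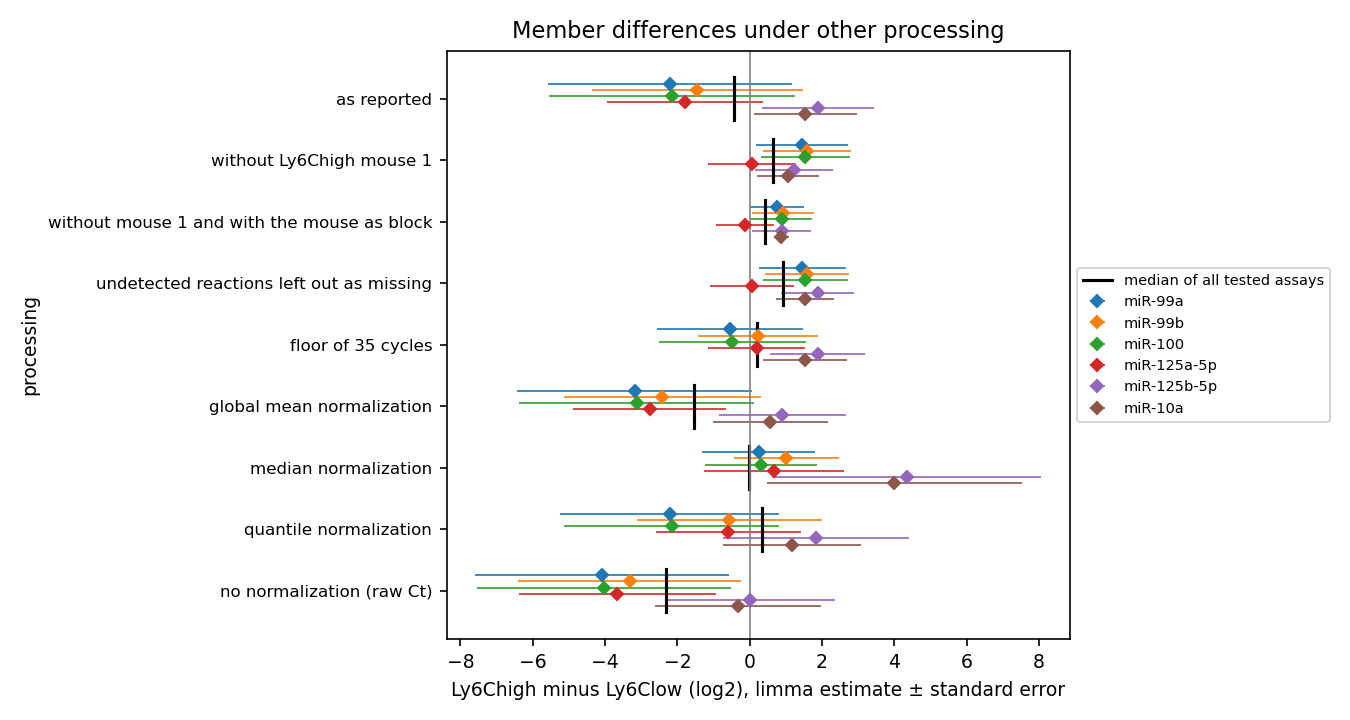
Ly6Chigh minus Ly6Clow (log2, limma estimate ± standard error) of the 6 tested members under the reported processing and 8 alternatives, with a black line for the median of all tested assays. miR-125b-5p stayed above 0 under each of them (lowest 0.0073 with raw Ct), miR-10a fell to −0.33 with raw Ct, and miR-99a, miR-99b and miR-100 changed sign when Ly6Chigh mouse 1 was left out and under median normalization, among others.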

How the data were processed

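Members and lists were chosen with earlier results of these data known. The title of each sample gave its subset and mouse. The authors deposited Ct values, a log2 scale with the sign turned and 40 for undetected reactions, and ΔCt values on the same log2 scale, from which they had subtracted the U6 Ct of the same sample and card. The subtracted value was checked to be constant per sample and card. A further table holds the authors' ratios within each mouse and was not used. The Ct software and threshold are not given in the sources used here. The 18 control wells were left out, and 201 of 750 assays were tested, 127 on card A and 74 on card B, each below a Ct of 35 in 3 or more of the 6 samples. Undetected reactions kept 40, so that a difference against one depends on this floor. Differences were fitted in R 4.3.3 using limma 3.58.1 (lmFit, eBayes) without a block, with Benjamini-Hochberg adjustment over all tested assays, after a test on simulated data. Other steps used scipy 1.17.1, matplotlib 3.10.9, numpy 2.4.6 and pandas 2.3.3 in Python 3.11.15. The text names the member assays, genomic partners, opposite strands, a list of blood miRNAs, cell type markers, and the 3 most similar assays. Alternatives were other normalizations, filters and floors, the mouse as a block, other variance models, and samples or mice left out. After the data were seen, the card A values of Ly6Chigh mouse 1 were left out, and mouse 1 was left out with the mouse as a block. The labels place same-numbered samples in 1 mouse, and their deviations from the subset means correlated at 0.32, 0.62 and 0.72 in mice 1, 2 and 3 over all tested assays, and at −0.085, 0.41 and 0.41 on card A. The number of arrays limits the precision.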

Additional observations from a re-analysis of the deposited data

How the results depend on the processing

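Under all 24 alternatives, 0 assays and 0 members passed the adjusted threshold. The lowest adjusted p was 0.15 for any assay and 0.443 for a member. At an unadjusted p under 0.05 the reported fit had 2 assays and the alternatives 0 to 16, with 0 of the 6 tested members in each. The replicate block by mouse gave 0 assays past the threshold and the same differences, and it changed no call. Its standard errors were 2.44 for miR-99a, 2.09 for miR-99b, 2.49 for miR-100 and 1.71 for miR-125a-5p. They were 1.41 for miR-125b-5p and 1.24 for miR-10a, with a limma adjusted p of 0.949 for each member. Of 139 member values under the alternatives, 114 had the reported sign. This count includes other filters, other variance models and the mouse as a block over all 6 samples. Those keep each reported difference by design, so their signs could not change. With single samples left out, the difference ranged from −4.13 to 1.46 for miR-99a, from −3.46 to 1.59 for miR-99b, from −4.02 to 1.54 for miR-100 and from −2.94 to 0.065 for miR-125a-5p, and it was positive only without Ly6Chigh mouse 1. With mice left out, the ranges were −4.15 to 0.75, −3.16 to 0.92, −4.19 to 0.88 and −3.13 to −0.12, and the first 3 were positive only without mouse 1, with or without the mouse as a block. Over both kinds, miR-125b-5p ranged from 0.88 to 2.89 and miR-10a from 0.88 to 2.00. When undetected reactions were treated as missing, and equally with card A of Ly6Chigh mouse 1 left out, miR-99a, miR-99b, miR-100 and miR-125a-5p turned to 1.46, 1.59, 1.54 and 0.065, because the undetected value then no longer enters. With median normalization they were 0.25, 1.01, 0.31 and 0.66, where the median of all assays was −0.01. A floor of 35 cycles gave 0.22 for miR-99b and 0.20 for miR-125a-5p, against a median of 0.21. Raw Ct gave −0.33 for miR-10a, against a median of −2.32. The floor changed only reactions above 35, which were Ly6Chigh mouse 1 for miR-99b and Ly6Chigh mice 1 and 2 for miR-125a-5p. Raw Ct and median normalization changed only the value subtracted per sample and card. Why that value differed between samples was not tested. Without a filter, miR-125a-3p entered the fit with a difference of 8.89, against a median of 1.87. Its unadjusted p was 0.0308 (limma), beside 9 of all 750 assays under 0.05. Its subset means differed by 4.89 without the Ly6Chigh sample of mouse 1, where only Ly6Chigh mouse 3 had a signal. The same value was 1.89 for miR-125b-3p, undetected in all 6 samples, so that part of such a difference comes from U6 alone. Detection limits what can be read: 23 of the 60 member reactions gave no signal, and a Ct of 40 bounds a level from above only.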
